A study of Mus musculus with 6 samples.

Results

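The mesothelium is the single layer of flat epithelial cells that lines the body cavities and covers the organs in them, and on the heart it forms the outer layer of the epicardium. These cells carry simple epithelial keratins and surface glycoproteins and, in the embryo, give rise through epithelial-mesenchymal transition to fibroblasts and mural cells of the heart. After myocardial infarction the epicardium is known to switch genes of its embryonic programme on again, Wt1 among them. Transcripts of 10 genes that mark these cells were followed here, Msln, Upk3b, Upk1b, Wt1, Krt8, Krt18, Krt19, Lrrn4, Muc16 and Bnc1. They were taken by symbol, and all 10 were among the 12969 genes of the deposited table.

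RNA-seq was made from infarct tissue of 3 IRF3-/- mice, called Irf3KO, and 3 wild-type mice, called WT. The Irf3 protein is a transcription factor of the interferon regulatory family, which turns on type I interferon once nucleic acid is sensed. All 6 mice were males of about 12 weeks whose left anterior descending coronary artery had been tied off for good with a suture, and the infarct was taken after 4 days from perfused hearts. The strain was C57BL/6 for WT and is not given for Irf3KO in the sources used here, nor is the deleted part of Irf3, the litter, or how much of the outer heart surface each piece of tissue held. Values are RPKM, reads scaled to gene length and to library depth. Because the tissue was sequenced in bulk, the cells that made each transcript are not known. Fewer mesothelial cells, less of a transcript per cell and a share from other cells cannot be told apart in any value below.

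The libraries held 14.8 to 61.9 M reads in genes, and each value of the 10 genes rested on 2 to 2735 reads with a median of 314.5. Irf3 itself stood at 7.4, 8.74 and 7.68 RPKM in Irf3KO and at 13.76, 13.87 and 11.56 RPKM in WT, lower in every Irf3KO library but still read. Irf3KO replicate 2 stood apart, with a mean correlation of 0.907 with the other libraries, which had 0.941 to 0.966. Its typical gene read low as well, with a median-of-ratios factor of 0.818 against 1.024 to 1.084. The 10 genes were also low in it, so their values without this library are given below.

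The promoters of 6 of the 10 genes were found in the RefSeq table of GRCm38.p6, and 4 are printed because these genes show both the shared pattern over the libraries and the departure from it described below. Upk3b and Lrrn4 followed the shared pattern. Krt8 and Krt18, whose proteins pair in 1 filament and which are next to each other on chromosome 15 with no protein-coding gene between them in RefSeq, did not follow it equally. Each sequence is the 250 bases before the annotated start, read in the direction of the gene, and capitals mark matches to the motifs listed after them.
Upk3b, chr5:136038246-136038495, plus strand: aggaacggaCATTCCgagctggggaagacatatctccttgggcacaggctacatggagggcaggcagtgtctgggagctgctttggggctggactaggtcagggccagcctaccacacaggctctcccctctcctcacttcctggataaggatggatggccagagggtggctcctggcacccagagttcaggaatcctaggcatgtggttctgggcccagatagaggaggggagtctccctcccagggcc
Lrrn4, chr2:132880863-132881112, minus strand: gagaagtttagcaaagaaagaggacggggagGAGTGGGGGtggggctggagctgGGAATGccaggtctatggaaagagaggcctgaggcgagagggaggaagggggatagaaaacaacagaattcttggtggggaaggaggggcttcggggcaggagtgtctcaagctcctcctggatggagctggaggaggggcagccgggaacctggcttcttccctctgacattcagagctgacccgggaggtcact
Krt8, chr15:102004343-102004592, minus strand: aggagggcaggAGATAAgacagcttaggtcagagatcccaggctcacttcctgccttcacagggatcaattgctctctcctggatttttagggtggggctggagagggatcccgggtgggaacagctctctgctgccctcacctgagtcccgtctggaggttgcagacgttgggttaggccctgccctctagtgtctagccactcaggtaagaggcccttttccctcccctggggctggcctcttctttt
Krt18, chr15:102027966-102028215, plus strand: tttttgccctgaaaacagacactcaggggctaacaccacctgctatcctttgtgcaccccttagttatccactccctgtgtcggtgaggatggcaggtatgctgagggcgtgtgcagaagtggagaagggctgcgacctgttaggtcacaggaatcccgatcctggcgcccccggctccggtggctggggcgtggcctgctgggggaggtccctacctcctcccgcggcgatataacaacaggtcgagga

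Motifs were searched on both strands of these windows. GGAATG, the letters bound by TEAD factors, which act with YAP downstream of Hippo signalling, was found in 2 of the 6 windows, Upk3b and Lrrn4, and in 12.6% of the 32851 windows of the table. GNGTGGGNG, a form of the site of WT1 itself, was found in Lrrn4 alone of the 6 and in 12.7% of all windows. AGATAA, a site of GATA factors, was found in Krt8 alone of the 6 and in 9.99% of all windows. GGGCGG, the GC box, was found in Bnc1 alone of the 6, at 5 places in a window of 83.6% G and C, and in 32.7% of all windows. TATAAA, the TATA box, and the interferon response element, to which interferon regulatory factors bind, were in none of the 6 windows and in 12.4% and 2.98% of all windows. These matches describe letters and say nothing of binding.

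The 10 transcripts were all lower on average in Irf3KO infarcts than in WT infarcts, by ratios of mean RPKM of 1.73 to 4.72, and none of these differences passed the test across all genes. The median of their log2 fold changes of RPKM + 1 was -0.91, against -0.09 over all tested genes, and 10 of 10 were below 0, against 59.3% of all tested genes. By limma with Benjamini-Hochberg adjustment over 12913 genes, 0 of the 10 were called lower, where 0.356% of all tested genes were, and 0 were called higher, where 0.147% were. The adjusted p was 0.556 for each of the 10. With unadjusted limma p-values 4 of the 10 were under 0.05, Msln, Muc16, Krt18 and Upk1b, against 5.96% of all tested genes in this direction. The spread between mice of 1 genotype is described with each gene.

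Msln and Muc16 come first among the surface proteins, since mesothelin, a membrane-anchored glycoprotein of mesothelial cells, is the binding partner of the large mucin MUC16. Msln stood at 19.82, 8.21 and 12.15 RPKM in Irf3KO replicates 1 to 3 and at 68.46, 16.16 and 33.98 RPKM in WT replicates 1 to 3. The highest Irf3KO library lay above the lowest WT library, and the WT libraries alone spanned 4.24-fold. Msln averaged 13.4 ± 5.90 RPKM in Irf3KO and 39.5 ± 26.6 RPKM in WT (SD, n = 3 each), a log2 fold change of -1.35 ± 0.50 (SE; limma adjusted p = 0.556). Muc16 stood at 2.02, 0.11 and 0.81 RPKM in Irf3KO and at 8.29, 1.3 and 4.3 RPKM in WT. Here too the groups overlapped, and the lowest value, in Irf3KO replicate 2, rested on about 2 reads. Its log2 fold change was -1.41 ± 0.52 (SE, n = 3 each; limma adjusted p = 0.556). The authors scaled Muc16 by a gene length of 1035 bases, where GENCODE M21 on GRCm38 gives its exons 26350 bases in all, so its RPKM cannot be set beside that of other genes.

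The uroplakins are membrane proteins best known from the surface of the bladder, and Upk3b and Upk1b are also made by mesothelial cells. Upk3b stood at 14.06, 6.1 and 11.01 RPKM in Irf3KO and at 34.73, 9.45 and 27.8 RPKM in WT. WT replicate 2 lay below both Irf3KO replicates 1 and 3. The log2 fold change was -1.02 ± 0.47 (SE, n = 3 each; limma adjusted p = 0.556). Upk1b stood at 10.55, 3.16 and 8.12 RPKM in Irf3KO and at 29.67, 8.57 and 16.04 RPKM in WT, with WT replicate 2 between Irf3KO replicates 1 and 3. Its log2 fold change was -1.17 ± 0.49. Lrrn4, a membrane protein with leucine-rich repeats that marks mesothelium, stood at 7.04, 1.59 and 5.16 RPKM in Irf3KO and at 17.15, 3.94 and 12.07 RPKM in WT. As for Upk3b, only Irf3KO replicate 2 was lower than WT replicate 2, and the log2 fold change was -1.06 ± 0.55.

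**Figure D1:**
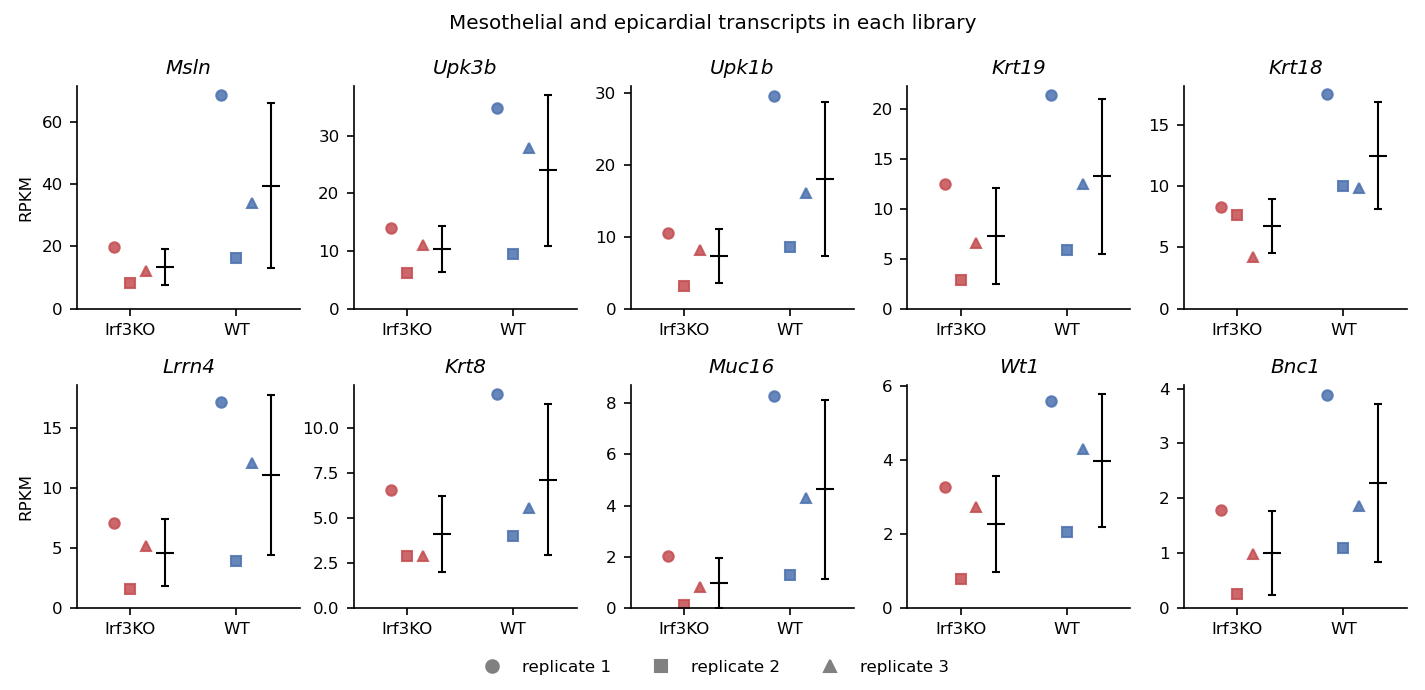
RPKM (linear axis from 0, its own scale per gene) of each of the 10 genes in the 3 Irf3KO libraries (left, red) and the 3 WT libraries (right, blue), with the replicate number as the symbol and black bars for the mean ± SD. In all 10 panels the highest point is WT replicate 1, and Krt18 is the one panel in which the 3 Irf3KO points lie below the 3 WT points.

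The keratins form the intermediate filaments of simple epithelia, with the type II keratin Krt8 pairing with the type I keratins Krt18 or Krt19. Krt18 was the only one of the 10 genes whose groups did not overlap, at 8.3, 7.66 and 4.25 RPKM in Irf3KO and 17.48, 10.03 and 9.86 RPKM in WT. Of all tested genes 11.8% were lower in Irf3KO without overlap, and 1 of the 10 is near that share. Krt18 averaged 6.74 ± 2.18 RPKM in Irf3KO and 12.5 ± 4.35 RPKM in WT (SD, n = 3 each), a log2 fold change of -0.80 ± 0.30 (SE; limma adjusted p = 0.556). An exact two-sided permutation test of Krt18 alone gave p = 0.1, the smallest that 3 against 3 libraries allow.

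The groups of Krt19 and Krt8 overlapped, although the log2 fold change of Krt19 was level with that of Krt18. Krt19 stood at 12.46, 2.89 and 6.56 RPKM in Irf3KO and at 21.36, 5.89 and 12.48 RPKM in WT, and Irf3KO replicate 1 and WT replicate 3 were nearly level. The log2 fold change of Krt19 was -0.80 ± 0.52 (SE, n = 3 each; limma adjusted p = 0.556). Krt8 stood at 6.55, 2.88 and 2.9 RPKM in Irf3KO and at 11.86, 3.97 and 5.53 RPKM in WT. Its second highest library was Irf3KO replicate 1, and its log2 fold change, -0.62 ± 0.40, was the nearest to 0 of the 10. Within each library the ratio of Krt18 to Krt8 RPKM was 1.27, 2.66 and 1.47 in Irf3KO and 1.47, 2.53 and 1.78 in WT. This ratio was highest in replicate 2 of each genotype, and it did not separate the genotypes. Krt8 was lowest within its genotype in these libraries, but in Irf3KO replicates 2 and 3 it was nearly level, at 2.88 and 2.9 RPKM.

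Wt1 and Bnc1 are the transcription factors of the group. Wt1 is a zinc finger protein needed for the formation of the epicardium, and Bnc1, basonuclin 1, is a zinc finger protein of mesothelial and some other epithelial cells. Wt1 stood at 3.27, 0.79 and 2.74 RPKM in Irf3KO and at 5.6, 2.06 and 4.29 RPKM in WT. The groups overlapped, with WT replicate 2 below Irf3KO replicates 1 and 3, and the log2 fold change was -0.63 ± 0.39 (SE, n = 3 each; limma adjusted p = 0.556). Bnc1, lowest in mean RPKM of the 9 genes other than Muc16, stood at 1.79, 0.26 and 0.98 RPKM in Irf3KO and at 3.88, 1.1 and 1.85 RPKM in WT. Its log2 fold change was -0.69 ± 0.37. Since 1 is added to each RPKM, the log2 fold changes of Bnc1, Wt1 and Muc16 were drawn toward 0 the most. With 0.1 added in place of 1 they were -1.22, -0.89 and -2.33. The ratios of mean RPKM of these genes, Irf3KO over WT, a measure that differs from means of log2 values, were 0.444, 0.569 and 0.212.

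Set in order of mean RPKM in WT, where reads are scaled per length, the genes ran from Msln through Upk3b at 24.0 ± 13.1, Upk1b at 18.1 ± 10.7, Krt19 at 13.2 ± 7.76, Krt18, Lrrn4 at 11.1 ± 6.66 and Krt8 at 7.12 ± 4.18 to Wt1 at 3.98 ± 1.79 and Bnc1 at 2.28 ± 1.44 (SD, n = 3). Neighbours in this order lay within the spread between mice. The order also depends on the authors' gene lengths, some of which differ from GENCODE M21. For Upk3b 2346 bases were used against 3530 in its exons, and for Wt1 6195 against 3090 in its longest transcript. Means in Irf3KO ran from 13.4 RPKM for Msln and 10.4 ± 4.02 for Upk3b to 2.27 ± 1.31 for Wt1 and 1.01 ± 0.765 for Bnc1, with Krt19 at 7.30 ± 4.83 and Upk1b at 7.28 ± 3.77 changing places between genotypes.

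The 10 genes went up and down together from mouse to mouse. In 9 of the 10, all but Krt18, WT replicate 1 was the highest WT library, replicate 3 the middle one and replicate 2 the lowest, and Irf3KO replicates 1, 3 and 2 stood in that order too. For Krt8 the order of Irf3KO replicates 3 and 2 rested on 2.9 against 2.88 RPKM. Of all tested genes 4.87% had this order in both genotypes. WT replicate 1 was the highest of the 6 libraries for 10 of 10 genes, against 24.4% of all tested genes, and Irf3KO replicate 2 the lowest for 9 of 10, against 52.2%. The replicate numbers are not stated to pair the mice.

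The range from the lowest to the highest WT library was wider than the ratio between the genotype means for most of the genes. Between the highest and the lowest WT library the 10 genes differed 1.77-fold to 6.38-fold, and for 9 of the 10 this was more than the ratio of the WT mean to the Irf3KO mean. Between the highest and the lowest Irf3KO library they differed 1.95-fold to 18.4-fold. On the log2 scale the median within-group SD was 0.792 for the 10 genes and 0.297 for all tested genes. The median log2 fold change of the 10 genes was -0.91, so by SD the typical spread was not wider than the difference. Ratios between the genes within a library varied as well, some less and some more than the levels. Msln spanned 8.34-fold over the 6 libraries, while the ratio of Msln to Upk3b was 1.41, 1.35 and 1.10 in Irf3KO and 1.97, 1.71 and 1.22 in WT. The ratio of Msln to Muc16 ran from 9.81 to 74.6 in Irf3KO and from 7.90 to 12.4 in WT, with the highest value resting on the 2 reads of Muc16 in Irf3KO replicate 2.

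**Figure D2:**
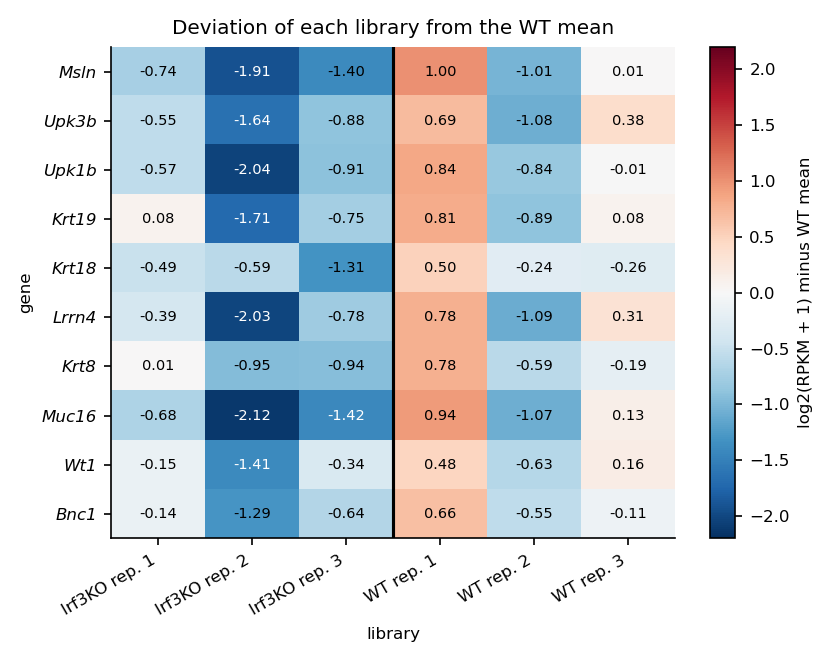
Each cell gives log2(RPKM + 1) of a gene (down the page, from highest to lowest WT mean) in a library (across) minus the gene's WT mean, with red above and blue below it and the Irf3KO libraries left of the WT libraries. Irf3KO replicate 2 is the lowest column except for Krt18, where Irf3KO replicate 3 is lowest at -1.31, and WT replicate 2 is below 0 for every gene.

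As deviations from the WT mean on the log2 scale, the median of the 10 genes was -0.44, -1.68 and -0.89 in Irf3KO replicates 1 to 3 and 0.78, -0.86 and 0.05 in WT replicates 1 to 3. WT replicate 2 therefore lay close to Irf3KO replicate 3 and below Irf3KO replicate 1. With Irf3KO replicate 2 left out, the median log2 fold change of the 10 genes was -0.65, and with WT replicate 1 left out it was -0.61, in each case with 0 of the 10 called by limma. Without WT replicate 2 the median was -1.40, also with 0 called. Dividing the RPKM by median-of-ratios factors, which takes out the low level of a typical gene in Irf3KO replicate 2, left a median of -0.80, with the median of all tested genes at 0.02.

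**Figure D3:**
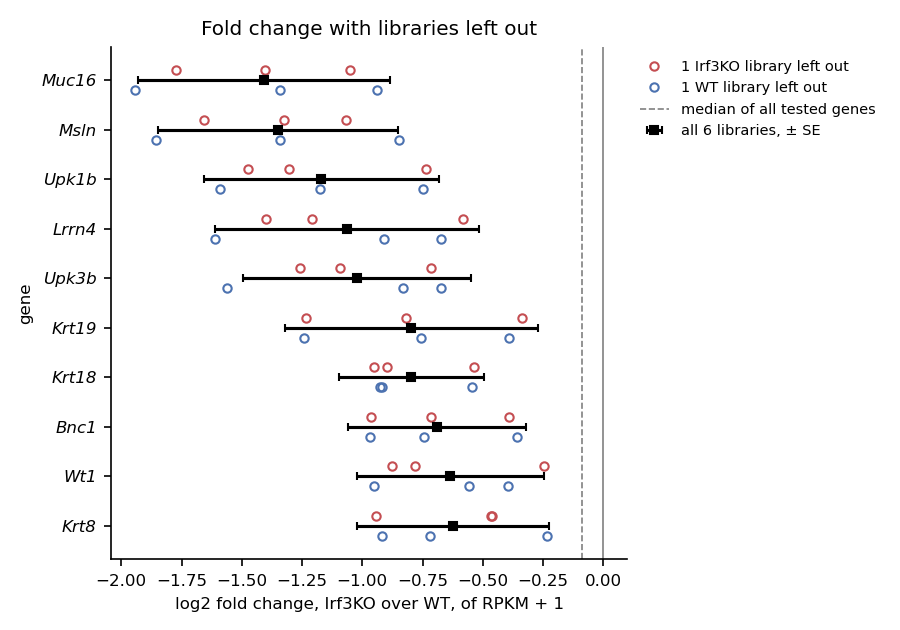
Log2 fold change of RPKM + 1, Irf3KO over WT (horizontal axis), of each gene with all 6 libraries (black squares, bars ± SE) and with 1 Irf3KO library (red circles) or 1 WT library (blue circles) left out; the dashed line is the median of all tested genes, -0.09. All circles lie below 0, from -1.94 for Muc16 to -0.23 for Krt8.

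Other genes known from mesothelium or epicardium were also mostly below 0, with a few above it. Of 35 listed, 30 were in the table and tested, 27 of them with a log2 fold change below 0, where 59.3% of all tested genes were, and a median of -0.56. By limma 0 of the 30 were called in either direction, and 6 had an unadjusted p under 0.05, where 8.4% of all tested genes did in either direction. Pkhd1l1, a large membrane protein related to fibrocystin, stood at 2.61, 0.28 and 1.74 RPKM in Irf3KO and at 10.71, 2.49 and 5.81 RPKM in WT, a log2 fold change of -1.49 ± 0.50 (SE, n = 3 each; limma adjusted p = 0.505). Has1, a synthase of hyaluronan, stood at 1.33, 0.53 and 2.65 RPKM in Irf3KO and at 4.76, 1.98 and 8.43 RPKM in WT. Its highest library was WT replicate 3, unlike the 10 genes. Cdh3, the adhesion protein P-cadherin, stood at 5.6, 6.74 and 5.35 RPKM in Irf3KO and at 13.94, 9.19 and 7.23 RPKM in WT, and its groups did not overlap (log2 fold change -0.65 ± 0.25, limma adjusted p = 0.556). Of the 30 genes, 4 were lower in Irf3KO without overlap, which is near the share of 11.8% over all tested genes.

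Among these 30 were regulators of the embryonic epicardium. Tcf21, a transcription factor of epicardium-derived fibroblasts, had a log2 fold change of -0.39 ± 0.30, Tbx18, a T-box factor of the epicardium, one of -0.53 ± 0.28, and Aldh1a2, which makes retinoic acid, one of -0.24 ± 0.23 (SE, n = 3 each; limma adjusted p = 0.574, 0.556 and 0.618). Of the 30 genes 3 were above 0, Gata4, Scx and Podxl. Their log2 fold changes were 0.29 ± 0.28, 0.12 ± 0.37 and 0.01 ± 0.21 (SE, n = 3 each, limma adjusted p = 0.627, 0.879 and 0.975). Of the 12 tested genes of the retinoic acid pathway 0 were called by limma, and their median was -0.21. Of the 13 tested genes of epithelial-mesenchymal transition 0 were called as well, with a median of -0.35. In each of these lists 1 gene had an unadjusted limma p under 0.05, which is near the share of 8.4% over all tested genes. Of the transition genes, Snai1 and Snai2, repressors of epithelial genes, were at 0.50 ± 0.31 and -0.57 ± 0.29, and Runx1 at -0.66 ± 0.22 (adjusted p = 0.556, 0.556 and 0.505).

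Genes of epithelial cell junctions, the structures to which keratin filaments attach, had fold changes on both sides of 0. Of 24 listed, only 11 were in the table and tested, so the list was read in part. These 11 had a median log2 fold change of 0.12, 0 were called and 0 had an unadjusted limma p under 0.05. Of the 11, 2 were lower in Irf3KO without overlap of the groups, against 11.8% of all tested genes. Desmosomal genes such as Dsp are also made by cardiomyocytes, and Dsp stood at 85.3, 109.13 and 91.7 RPKM in Irf3KO and at 41.03, 98.71 and 125.19 RPKM in WT. F11r, a tight junction adhesion molecule, was at 22.67, 18.19 and 19.57 RPKM in Irf3KO and 32.84, 23.56 and 23.82 RPKM in WT, a log2 fold change of -0.38 ± 0.20 (SE, n = 3 each; limma adjusted p = 0.556) without overlap of the groups.

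The genes whose profile over the 6 libraries was most like the mean profile of the 10 were sought among all other tested genes. Likeness was the root mean square difference, on the log2 scale, between centred profiles, and the median over all other tested genes was 0.701. The 10 most alike, at 0.144 to 0.227, were Dmkn, Rspo1, Wnt4, Gpm6a, Slc39a8, Smpd3, Ptgs1, 2610018G03Rik, Dpp4 and Rab11fip1. Dmkn, Rspo1 and Gpm6a were also in the list of other mesothelial and epicardial genes. Rspo1, a secreted enhancer of Wnt signalling, stood at 2.13, 0.46 and 1.69 RPKM in Irf3KO and at 6.37, 1.24 and 4.33 RPKM in WT, and Wnt4, a Wnt ligand, at 2.97, 1.0 and 2.73 RPKM in Irf3KO and 9.59, 2.13 and 4.58 RPKM in WT. Krt18, at 0.508, was the least alike of the 10 genes to their own mean, and the other 9 stood at 0.185 to 0.28.

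**Figure D4:**
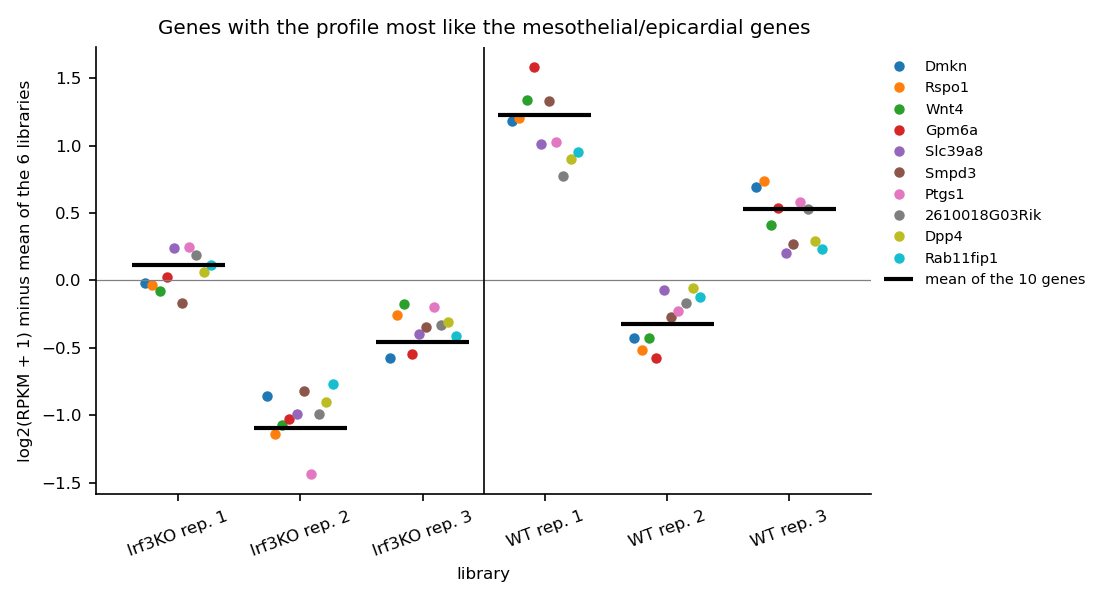
Log2(RPKM + 1) minus each gene's mean of the 6 libraries (vertical axis) in each library, Irf3KO left of WT, for the 10 genes most alike in profile (coloured points) and the mean of the 10 mesothelial and epicardial genes (black bars). The bars stand at 0.12, -1.09 and -0.46 in Irf3KO replicates 1 to 3 and at 1.23, -0.32 and 0.53 in WT replicates 1 to 3. The points lie near the bars because the genes were chosen for that.

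Markers of other cell types moved between the same libraries. The summed RPKM of the 18 cardiomyocyte genes was 19083, 31411 and 22305 in Irf3KO replicates 1 to 3 and 8917, 17260 and 24656 in WT replicates 1 to 3. It was lowest in WT replicate 1, where the 10 genes were highest, and highest in Irf3KO replicate 2, where 9 of them were lowest, but WT replicate 3, second highest for 8 of the 10, had more than WT replicate 2. All 18 cardiomyocyte genes had a log2 fold change above 0, with a median of 0.60, and 0 were called by limma (2 had an unadjusted p under 0.05). The 17 fibroblast genes had medians of -0.25, -0.94 and -0.22 in Irf3KO and -0.12, 0.05 and 0.09 in WT relative to the WT mean. Their summed RPKM was 5135, 4028 and 5576 in Irf3KO and 7126, 7264 and 6493 in WT, and both measures were lower in every Irf3KO library than in every WT library. Of the 17, 16 had a log2 fold change below 0, with a median of -0.50, 7 were lower in Irf3KO without overlap of the groups, against 11.8% of all tested genes, and 0 were called by limma (4 had an unadjusted p under 0.05). Between WT replicates 1 and 2 the fibroblast medians differed by less than those of the 10 genes. The 13 macrophage genes had medians of 0.16, -1.01 and -0.08 in Irf3KO and 0.54, -0.20 and -0.26 in WT. Their summed RPKM ran from 2440 to 6164 in Irf3KO and from 3749 to 6685 in WT, 12 of the 13 had a log2 fold change below 0 with a median of -0.29, and 0 were called (2 had an unadjusted p under 0.05). Median log2 fold changes were -0.12 for 11 endothelial genes, -0.18 for 10 genes of smooth muscle and pericytes and 0.30 for 6 adipocyte genes, each with 0 called by limma (0, 0 and 1 had an unadjusted p under 0.05). Over all tested genes 59.3% had a log2 fold change below 0, and 8.4% had an unadjusted limma p under 0.05 in either direction. The lists share some genes, such as Tcf21, which is in the fibroblast, transition and other mesothelial and epicardial lists. The part of these cell types, and of the amount of outer heart surface in each sample, in the differences between libraries was not tested.

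**Figure D5:**
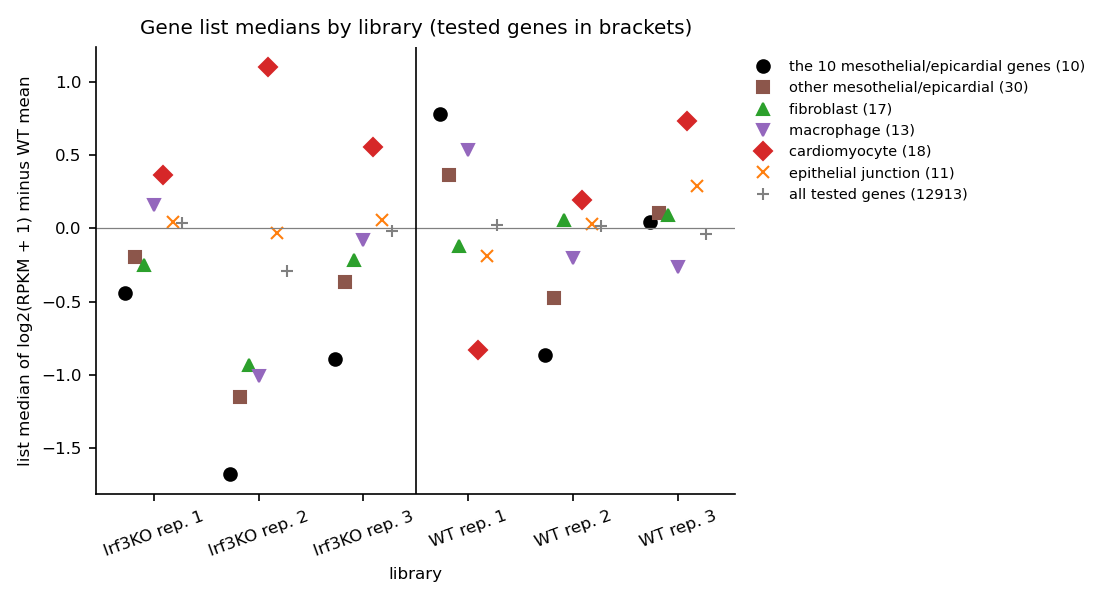
Median over the tested genes of a list (number in brackets) of log2(RPKM + 1) minus the WT mean (vertical axis) in each library, Irf3KO left of WT. The 10 mesothelial and epicardial genes (black circles) range from -1.68 in Irf3KO replicate 2 to 0.78 in WT replicate 1, and the cardiomyocyte genes (red diamonds) are at 1.10 and -0.83 in these libraries.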

How the data were processed

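The authors deposited RPKM for 12969 genes in 6 libraries, rounded to 2 decimals, with a gene length. The submitters' processing notes name STAR 2.3.0, HTSeq 0.6.0, edgeR 3.8.6, SAMtools 0.1.18.0 and Picard 1.100 and the build NCBIM37 (mm9), and the settings for strand and multi-mapping reads were not given in the sources used here. In 5 lines a split gene name was repaired. Depth came from low RPKM values times gene length, which lie 1 read apart. At the depth chosen to make these values whole, 100% of 50 to 219 values per library were whole to within 0.2 reads. An arbitrary depth would give 40%, but since the depth was fitted to the same values this is no independent check. RPKM are not counts, so genes averaging 1 RPKM or more over the libraries, 12913 in number, were tested on the scale of log2(RPKM + 1) by limma (version 3.58.1, under R 4.3.3, trended eBayes, two-sided, Benjamini-Hochberg, threshold 0.05).

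The 10 genes and the lists were chosen with earlier results of these data known. Genes named in the text come from the 10, Irf3, the 3 genes of each other list with the smallest p and the 10 most alike in profile. Tcf21, Tbx18, Aldh1a2, Gata4, Scx, Podxl and Dsp were added after their values were seen. The labels do not describe the 3 mice per group further, and p-values cover only the spread among these libraries, which may be technical in part. In simulated data for Irf3KO against WT over 12893 genes, limma called 78 of 99 genes changed 4-fold, 17 of 99 changed 2-fold and 5 of 12695 unchanged genes. There the changed genes were drawn from all tested genes and each gene varied on its own. The 10 genes varied together and more widely than most, so these rates do not carry over to them. Promoters are RefSeq's of GRCm38.p6, not the authors' build.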

Additional observations from a re-analysis of the deposited data

How the results depend on the processing

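All 10 genes stayed below 0 under the 12 alternatives in which they were tested; with a mean of at least 5 RPKM required, Muc16, Wt1 and Bnc1 were not tested. The median log2 fold change of the 10 genes ranged from -1.40 to -0.61 with 1 library left out, where 0 of the 10 were called in any fit, and from -1.15 to -0.80 under the other alternatives. Over all genes, 6 to 27 were called higher and 15 to 69 lower with 1 library left out, against 19 and 46 with all. With a mean of at least 5 RPKM 12 were called higher and 22 lower. The replicate numbers were tried as a replicate block, although nothing states that they pair the mice and same-numbered libraries correlated at 0.129, -0.098 and -0.102 over all tested genes. With this block 63 genes were called higher and 187 lower, and 4 of the 10 genes were called lower, Muc16, Msln, Upk1b and Lrrn4 (limma adjusted p = 0.00111, 0.00493, 0.0173 and 0.0391). In the check of numbers against each other, 1 of the 3 Irf3KO libraries correlated best with its own number. Depth limits Muc16 and Bnc1 most, with about 2 and 22 reads in Irf3KO replicate 2.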

Other observations

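Of 10 genes listed for stratified epithelia, such as skin, 3 were in the table. Lgals7, a galectin of such epithelia, stood at 1.75, 1.37 and 1.81 RPKM in Irf3KO replicates 1 to 3 and at 9.71, 3.22 and 7.55 RPKM in WT replicates 1 to 3, without overlap of the groups, a log2 fold change of -1.47 ± 0.33 (SE, n = 3 each; limma adjusted p = 0.17). The WT libraries stood in the same order as for Msln, while the Irf3KO libraries lay close together. Krt14, a keratin of basal cells, stood at 2.08, 1.86 and 1.23 RPKM in Irf3KO and at 7.05, 2.13 and 3.33 RPKM in WT, also without overlap (-0.82 ± 0.33, adjusted p = 0.556). Sfn, also of that list, stood at 5.87, 8.33 and 6.35 RPKM in Irf3KO and at 6.11, 6.77 and 4.73 RPKM in WT, with no such order. Thus 2 of these 3 genes were lower in Irf3KO without overlap, where 11.8% of all tested genes were. Of the lung epithelial list 2 of 14 genes were in the table, Hopx and Napsa, neither of which is made by lung epithelium alone. The surfactant genes of that list were not found in the table under the symbols searched.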
